A study of Mus musculus with 24 samples.

Results

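Fat next to a breast tumor was compared between mice on a high-fat diet and mice on chow. The members were chosen by the labels alone: the 4 libraries with sample type peritumoral and diet HFD (high-fat diet) against the 4 with sample type peritumoral and diet Chow, 8 of the 24 libraries of the series, across all genes. Both groups were C57BL/6 mice, both carried a tumor, and the tissue was subcutaneous fat of the 4th mammary gland. The other 16 libraries were 4 per diet from contralateral fat, the opposite side of tumor-bearing mice, and 4 per diet from fat of mice labelled as having no tumor. They are used here only to ask where the diet difference next to the tumor departed from that at the other positions. Age, sex, time on the diet, tumor line and distance of the fat from the tumor are not stated in the labels. Nor do the labels tie each of the 4 replicates to its own mouse. The p-values therefore rest on library-to-library spread alone, part of which may be technical.

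The mammary fat pad is white fat threaded with milk ducts, vessels and nerves. When food energy is in excess its fat cells enlarge, secrete more of the satiety hormone leptin and draw in macrophages that take up lipid. When that excess is eaten as fat, the fat cells make less fatty acid from glucose. The same tissue feeds a growing tumor with lipid, hormones and matrix, and the study asks whether creatine, made from arginine and glycine and held in cells as phosphocreatine, passes between fat cells and cancer cells.

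Total counts ran from 9130125 to 14460254 in the Chow libraries and from 15982962 to 18204747 in the HFD libraries, without overlap. Levels are in CPM, counts scaled for library size over all 24 libraries. The 18 fat cell markers were all measured, with summed levels of 20580 to 25490 CPM on chow and 16840 to 32150 CPM on HFD, highest in HFD library 1 and lowest in HFD library 2. Other tissue was visible too. Skeletal muscle genes summed to 3073 CPM in Chow library 2 and 493 CPM in Chow library 3, against 41.7 to 57.2 CPM in 5 other libraries and 321 CPM in HFD library 2. B and plasma cell genes summed to 1304 CPM in Chow library 3, against 288 to 673 CPM in the other 7, while on the mean log2 scale HFD library 2 was highest (4.70, against 1.84 to 3.51 in the other 7). On principal component analysis 63.9% of the variance lay along the first axis, which separated the diets, with HFD library 1 the HFD library nearest to chow. RNA of a whole tissue piece cannot tell fewer cells of a type from less RNA per cell.

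Of 15919 genes tested, 2608 were higher on HFD (16.4%) and 2745 lower (17.2%) at an adjusted p under 0.05, 33.6% in all. More than 2-fold changes were rarer, 649 higher and 1312 lower. All fold changes are given as log2(HFD/Chow) ± its standard error from the fit, with 4 libraries per group, and the median over all genes tested was 0.02. The groups did not overlap for 33.9% of the genes. Lack of overlap was a condition for naming the genes with the lowest adjusted p or the largest change, so for those it is a description only. The counts depended on single libraries: without Chow library 1, 1399 genes were higher and 1708 lower. Without Chow library 2 or HFD library 4 the higher count was 1729 in both cases.

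Genes of fat cell expansion were among those with the strongest changes. Lep (chr6:29060220-29073877, mm10), which encodes leptin, stood at 185, 215, 294 and 165 CPM in the Chow libraries and 1465, 1080.1, 1129 and 1461 CPM in the HFD libraries, a log2 change of 2.50 ± 0.20, adjusted p = 0.000134. Sfrp5, a secreted Wnt inhibitor made by fat cells, stood at 8.99, 9.29, 17.3 and 8.87 CPM on chow and 216, 174, 224 and 237 CPM on HFD (4.16 ± 0.24, adjusted p = 5.99e-05). Every HFD library exceeded every Chow library for both genes, and the highest Chow value of each was that of library 3. Mest, an imprinted gene that marks fat cell enlargement, stood at 7.97, 14.5, 39.2 and 5.83 CPM on chow and 367, 349, 255 and 555 CPM on HFD (4.38 ± 0.63, adjusted p = 0.0025), with Chow library 3 well above the other 3 Chow libraries. Npr3, the clearance receptor for natriuretic peptides, stood at 235, 384, 325 and 361 CPM on chow and 1535, 878, 1097 and 1289 CPM on HFD (1.80 ± 0.21, adjusted p = 0.000549). Bmp3 (1.94), the lipid droplet coat gene Plin2 (1.08) and the macrophage elastase gene Mmp12 (3.44) completed the leading members of the expansion list, of which 11 of 13 tested members rose and none fell. The list's median was 1.94, and over all genes tested 16.4% rose. Like the other lists it was chosen with earlier results of these data known, so its count is a description only. The list also holds genes of macrophages and inflammation, Mmp12 among them, so its count is not one of fat cell genes alone. Cav1 and Cavin2, genes of the surface pits called caveolae, did not pass (0.45 ± 0.18 and 0.44 ± 0.19).

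**Figure D1:**
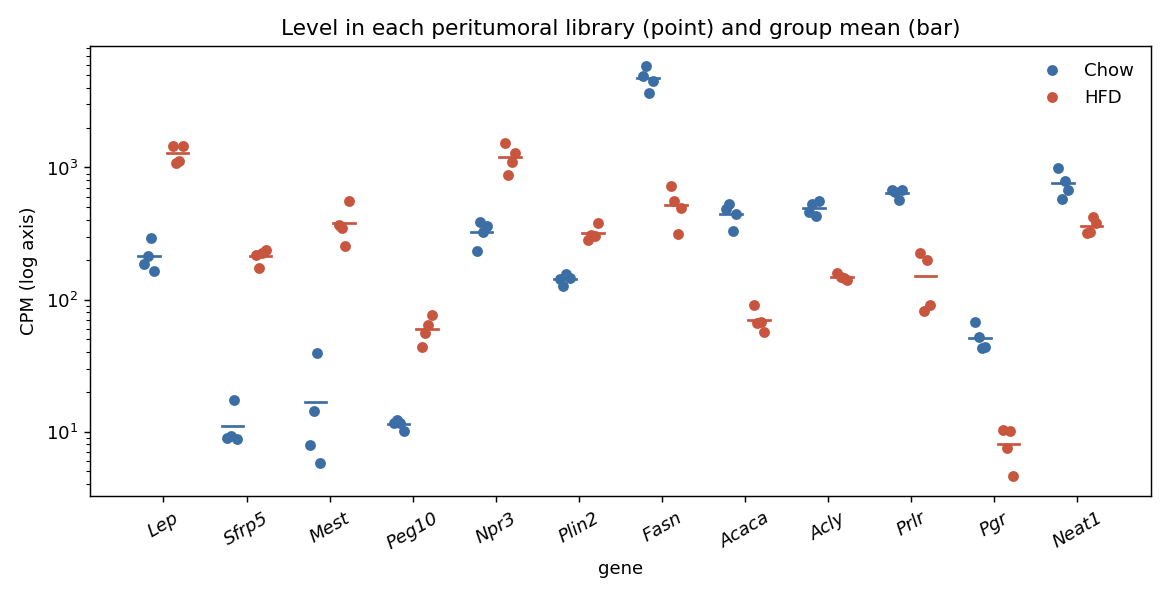
Level of 12 genes in the 8 peritumoral libraries, in CPM on a log axis, with blue points for Chow, red points for HFD and a bar at each group mean. No gene shown has an HFD library inside the Chow range: Lep, Sfrp5, Mest, Peg10, Npr3 and Plin2 lie above it, and Fasn, Acaca, Acly, Prlr, Pgr and Neat1 below it.

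Other genes with the lowest adjusted p belonged to no single function. Peg10 (chr6:4747306-4760517), an imprinted gene derived from a retrotransposon, stood at 11.6, 12.3, 11.6 and 10.03 CPM on chow and 43.6, 55.4, 64.1 and 76.9 CPM on HFD (2.31 ± 0.16, adjusted p = 5.99e-05). Abat, which breaks down the transmitter GABA, stood at 8.38, 8.94, 10.04 and 7.12 CPM on chow and 56.02, 36.8, 51.98 and 51.96 CPM on HFD (2.42 ± 0.16, adjusted p = 5.99e-05). Neither gene showed any overlap, and HFD library 4 was the highest for Peg10. Sod3, extracellular superoxide dismutase, rose by 1.93 ± 0.16, the synaptic vesicle gene Syp by 2.27 ± 0.20, Synpo2 by 1.90 ± 0.18 and Psat1 of serine synthesis by 1.25 ± 0.12. Crtac1 (2.58), Ccdc9b (1.60), Grap (1.36), Trim16 (1.06), Pxdc1 (1.08) and Ccn1 (1.15) also rose. Among the largest rises were genes nearly silent on chow. Itgad, an integrin subunit of macrophages, stood at 0.136, 0.0698, 0.2405 and 0.233 CPM on chow and 8.28, 7.099, 4.93 and 29.1 CPM on HFD (6.06 ± 0.78, adjusted p = 0.00122). Tph2 (6.22 ± 0.91), the lipase gene Lipf (6.38 ± 1.03) and Ubd (4.12 ± 0.48) showed the same form, each highest in HFD library 4.

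Mmd2 was nearly absent on HFD: it stood at 16.96, 11.3, 7.82 and 8.3997 CPM on chow and 0.168, 0.0587, 0.122 and 0 CPM on HFD (-6.92 ± 0.47, adjusted p = 5.99e-05). Abcc8, the sulfonylurea receptor, changed by -4.12 ± 0.32 and Cyp3a57 by -3.19 ± 0.24. Nrxn3, which encodes the synaptic protein neurexin 3, stood at 79.7, 52.6, 55.7 and 21.6 CPM on chow and 1.29, 1.82, 3.29 and 1.31 CPM on HFD (-4.85 ± 0.46, adjusted p = 0.000518). The stretch-gated channel gene Piezo2 changed by -2.77 ± 0.23, Kcna1, a potassium channel gene, by -2.80 ± 0.28, Reln, which encodes reelin, by -2.34 ± 0.21, and Parm1 by -1.63 ± 0.15. Tkt, transketolase of the pentose phosphate pathway, stood at 713, 881, 716 and 721 CPM on chow and 283, 224, 202 and 195 CPM on HFD (-1.82 ± 0.15, adjusted p = 0.000137). Cyp2e1 (-3.44), Mfsd2a (-3.20), Dmbt1 (-3.12), Rbm4b (-1.38), Fam160a1 (-1.22) and Tro (-2.06) were lower as well.

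Antisense genes, long intergenic genes and processed transcripts fell far more often than they rose on HFD. Of 426 antisense genes tested 197 fell and 5 rose, of 261 long intergenic genes 101 fell and 7 rose, and of 194 processed transcripts 76 fell and 5 rose. Of 13839 protein-coding genes 2140 fell and 2445 rose. The medians were -0.85, -0.66, -0.56 and 0.04 in that order. Processed pseudogenes did not share the fall: of 709 tested, 111 rose and 90 fell, with a median of 0.21. The share of counts in antisense and long intergenic genes lay between 1.55% and 2.01% in the Chow libraries and between 0.890% and 0.998% in the HFD libraries (exact permutation p = 0.0286, the smallest that 4 against 4 libraries allow, and 0.0776 adjusted over 19 library measures). Malat1 and Neat1, 2 nuclear RNAs, stood out by abundance. Malat1 stood at 11594, 9987, 10311 and 11154 CPM on chow and 4800.1, 4484, 5265 and 5339 CPM on HFD (-1.19 ± 0.14, adjusted p = 0.000655), and Neat1 at 992, 573, 797 and 675 CPM on chow and 317, 327, 422 and 383 CPM on HFD (-1.15 ± 0.18, adjusted p = 0.00166). With all libraries thinned to the lowest total the changes were -1.21 and -1.16, and 132 of 282 antisense genes fell. With Chow library 1 left out, 131 of 448 antisense genes fell. No label states whether counting used the strand, so reads of an antisense gene and of its partner cannot be told apart.

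Creatine genes did not move as a group: of 14 tested, 4 rose and 4 fell. Synthesis takes 2 enzymes. Gatm (chr2:122594467-122611303), which encodes the first, stood at 9.603, 11.9, 12.6 and 14.5 CPM in the Chow libraries and 12.5, 38.02, 24.8 and 37.7 CPM in the HFD libraries (1.14 ± 0.31, adjusted p = 0.021). HFD library 1 lay inside the Chow range and the other 3 HFD libraries above it. Gamt, which encodes the second, stood at 3.88, 5.31, 5.89 and 4.55 CPM on chow and 9.85, 9.504, 6.88 and 9.62 CPM on HFD (0.78 ± 0.19, adjusted p = 0.0109), with no overlap. For Gatm the adjusted p was 0.0654 without Chow library 1, 0.0521 without Chow library 2, 0.0551 without HFD library 2 and 0.0532 without HFD library 4. The importer Slc6a8 was measured at 26.4, 23.1, 24.7 and 22.5 CPM on chow and 24.3, 41.5, 27.6 and 34.04 CPM on HFD and did not pass (0.32 ± 0.15, adjusted p = 0.13), and neither did the cytosolic kinase gene Ckb (0.33 ± 0.17, adjusted p = 0.16). For Slc6a8, 3 HFD values exceeded every Chow value, and HFD library 1 did not.

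Arginine, the precursor of creatine, enters through cationic amino acid transporters, and their genes moved in opposite directions. Slc7a2 stood at 209.6, 151, 169 and 171 CPM on chow and 55.1, 24.5, 46.5 and 22.4 CPM on HFD (-2.31 ± 0.29, adjusted p = 0.00108), and every HFD library lay far below the Chow range. Slc7a1 rose by 0.89 ± 0.24, adjusted p = 0.02, a call lost with adjusted p = 0.0621 without Chow library 1 and 0.0537 without Chow library 2. Arg2, mitochondrial arginase, fell by 1.40 ± 0.27, adjusted p = 0.00429, and Amd1, a step of polyamine synthesis, fell by 0.53 ± 0.13, adjusted p = 0.0146. Odc1, which makes the polyamine putrescine, rose by 1.86 ± 0.55, adjusted p = 0.0342, with levels of 15.9, 17.5, 25.9 and 47.4 CPM on chow and 32.2, 172, 79.4 and 123 CPM on HFD. HFD library 1 lay among the Chow values there, and the adjusted p was 0.0809 without Chow library 1, 0.0719 without Chow library 2, 0.0702 without Chow library 3, 0.0898 without HFD library 2, 0.0616 without HFD library 3 and 0.0856 without HFD library 4. The mitochondrial kinase gene Ckmt1 fell by 1.23 ± 0.37, adjusted p = 0.0286 at levels under 3 CPM, with adjusted p = 0.0762 without Chow library 1, 0.0631 without Chow library 2, 0.0646 without Chow library 3, 0.0596 without HFD library 2 and 0.0654 without HFD library 4. Ckm, the muscle kinase, was 1.09, 104, 11.8 and 0.817 CPM on chow and 0, 10.8, 0.243 and 0.125 CPM on HFD and did not pass (adjusted p = 0.21): its highest values were in the libraries with the most muscle RNA, whose part in it was not tested. Oat (0.31 ± 0.11), Arg1 (0.76 ± 0.96) and Azin2 (-0.24 ± 0.17) did not pass, and Ckmt2 was below the low-count filter. Leaving out Chow library 1 or 2 left a single member that rose, and without HFD library 4, 2 did.

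Of 18 genes that define the mature fat cell 2 rose and 3 fell, no more than the shares over all genes tested (16.4% and 17.2%). Their median was -0.21, or -0.44 without HFD library 1 and -0.104 without HFD library 2. Adipoq, which encodes adiponectin, stood at 1110.4, 1393, 1148 and 959 CPM on chow and 2174, 1187, 1432 and 1560.2 CPM on HFD (0.39 ± 0.20, adjusted p = 0.145), and Fabp4 (0.41 ± 0.21), Cidec (0.18 ± 0.19), Lpl (-0.27 ± 0.21) and Car3 (-0.20 ± 0.23) did not pass. Pparg, the master regulator of fat cell formation, fell by 0.61 ± 0.16, adjusted p = 0.015. HFD library 1 stood above the other 3 HFD libraries for Adipoq and Fabp4. Without it 8 members fell, without HFD library 2, 4 rose, and without Chow library 1, Chow library 2, HFD library 3 or HFD library 4, a single member fell. None rose without Chow library 3, Chow library 4 or HFD library 4, and 1 rose without Chow library 1, HFD library 1 or HFD library 3.

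Among hormones of fat, Lep and Sfrp5 were joined by Rarres2, which encodes chemerin (1.07 ± 0.14, adjusted p = 0.000944), and Angptl4, an inhibitor of lipoprotein lipase (0.98 ± 0.13, adjusted p = 0.000964). Cfd, the complement protease adipsin, fell by 1.25 ± 0.29, adjusted p = 0.0104, with levels of 5538, 5713, 3708 and 3809 CPM on chow and 3016, 1621, 2495 and 1173 CPM on HFD. Nrg4 stood at 104, 96.6, 89.3 and 99.2 CPM on chow and 59.8, 32.7, 41.6 and 40.9 CPM on HFD (-1.23 ± 0.17, adjusted p = 0.000975), and Lcn2 fell by 0.76 ± 0.19, adjusted p = 0.0117. The 4 Chow values of Nrg4 exceeded all 4 HFD values. In all, 5 of 13 adipokine genes rose and 4 fell. Retn (-0.75 ± 0.29) and Nampt (-0.11 ± 0.12) did not pass.

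Most genes of fatty acid synthesis fell while several of cholesterol synthesis rose. Of 19 genes of fatty acid synthesis 12 fell and 2 rose, with a median of -1.08, and of 22 genes of cholesterol synthesis 9 rose and none fell, with a median of 0.62, or 0.37 without HFD library 2. Fasn (chr11:120805940-120824178), fatty acid synthase, stood at 4947, 5824, 3655 and 4513 CPM in the Chow libraries and 726, 557, 312 and 494 CPM in the HFD libraries (-3.25 ± 0.26, adjusted p = 0.000134). Acaca, which makes the malonyl-CoA that Fasn uses, stood at 483, 525, 331 and 441 CPM on chow and 91.4, 66.5, 67.1 and 56.9 CPM on HFD (-2.73 ± 0.19, adjusted p = 5.99e-05). Acly, which makes the acetyl-CoA, stood at 462, 527, 431 and 557 CPM on chow and 159.5, 147, 145 and 140.4 CPM on HFD (-1.82 ± 0.12, adjusted p = 5.99e-05). All 3 steps in a row were at a fraction of their chow level in every HFD library. Elovl6 (-2.49 ± 0.24), Acacb (-2.03 ± 0.19), Acss2 (-1.69 ± 0.19), Me1 (-1.37 ± 0.25) and the citrate carrier Slc25a1 (-1.08 ± 0.20) fell with them. So did the transcription factor genes Mlxipl (-1.60 ± 0.23) and Srebf1 (-0.76 ± 0.17), which drive this pathway from glucose and insulin. The desaturase genes did not follow, and 1 of them, not named here, was among the 2 genes of the list that rose. Scd1 stood at 13445, 16986, 13643 and 13295 CPM on chow and 21973, 9417, 15064 and 10541 CPM on HFD (-0.08 ± 0.26, adjusted p = 0.834), with HFD values on both sides of the Chow range, and Fads1 did not pass (-0.29 ± 0.13). G6pdx rose by 0.55 ± 0.12 while Pgd, a later step of the same pathway, did not pass (-0.08 ± 0.10). A single gene of fatty acid synthesis rose without Chow library 1, Chow library 3, HFD library 2 or HFD library 4.

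**Figure D2:**
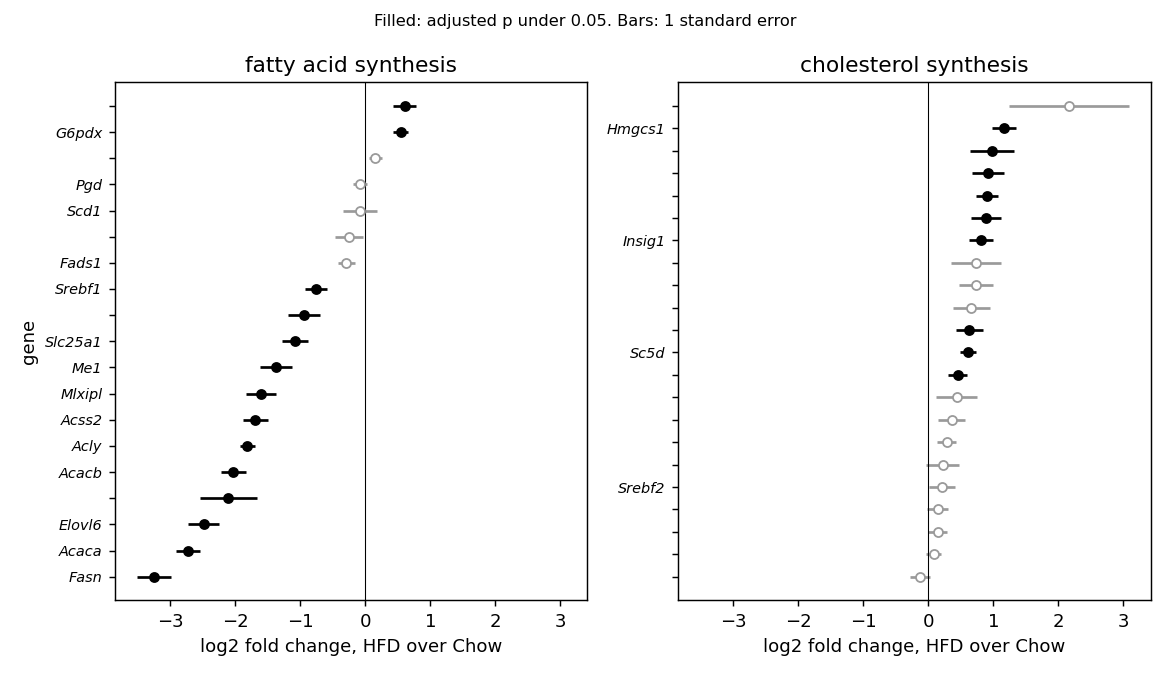
Log2 fold change (HFD over Chow, horizontal axis) of each tested gene of fatty acid synthesis on the left and of cholesterol synthesis on the right, with bars of 1 standard error and filled points for an adjusted p under 0.05. Names are given for the genes described in the text. Fatty acid synthesis runs down to -3.25 for Fasn, and every filled point of cholesterol synthesis lies to the right of 0.

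In the cholesterol pathway Hmgcs1, HMG-CoA synthase, stood at 61.5, 67.04, 89.4 and 71.05 CPM on chow and 172, 152, 128 and 236 CPM on HFD (1.17 ± 0.19, adjusted p = 0.00201). Sc5d, a desaturase of the late steps, stood at 48.6, 49.8, 41.1 and 54.01 CPM on chow and 90.8, 78.97, 65.2 and 76.1 CPM on HFD (0.61 ± 0.12, adjusted p = 0.00536). Neither gene overlapped between the diets. Insig1, which holds back the pathway when sterol is plentiful, rose as well (0.81 ± 0.19). The regulator Srebf2 did not pass (0.21 ± 0.20), with its highest value in HFD library 2. Of the list 4 rose without Chow library 1.

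The promoters of Hmgcs1 and Fasn are shown because these genes moved in opposite directions although sterol-responsive factors are known to act on both. Each line gives the 150 bases before the RefSeq start (GRCm38.p6, the patched mm10), 5′ to 3′ on the gene's strand, at chr13:119690201-119690350 on the plus strand and chr11:120824548-120824697 on the minus strand. Capitals mark CCAAT (or ATTGG on the other strand) and, in Hmgcs1, the sterol element TCACNCCAC; in Fasn a CCAAT and an ATTGG overlap.
Hmgcs1: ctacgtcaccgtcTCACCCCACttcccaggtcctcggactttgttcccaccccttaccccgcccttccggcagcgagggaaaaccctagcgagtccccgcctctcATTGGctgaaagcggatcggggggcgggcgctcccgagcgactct
Fasn: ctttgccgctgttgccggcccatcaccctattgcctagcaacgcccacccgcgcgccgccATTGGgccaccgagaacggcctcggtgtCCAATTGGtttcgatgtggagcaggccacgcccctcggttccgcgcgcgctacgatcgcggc
The sterol element stood in 1 of 18 such windows of cholesterol synthesis genes, 1 of 21 of fatty acid synthesis genes and 0.639% of all 32851 promoters, searched on both strands. CCAAT stood in 14 of the 18, 9 of the 21 and 24.5% of all. A match of letters is a description and not a bound site. Of the 22 cholesterol genes 15 were matched in the promoter table, and of the 20 listed fatty acid genes 16.

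Single genes of triglyceride storage and release changed at the RNA level. Gpam, the first step of glycerolipid synthesis, stood at 383, 372, 288 and 263 CPM on chow and 169.6, 114, 98.5 and 102 CPM on HFD (-1.51 ± 0.20, adjusted p = 0.00092), every HFD library below every Chow library. Gpat3 (-1.43 ± 0.22) and Dgat1 (-1.10 ± 0.20) also fell, and Dgat2 did not pass (0.12 ± 0.23). In all, 5 of 13 genes of triglyceride synthesis fell and 2 rose, though at most 1 rose when any library other than HFD library 1 was left out. Without HFD library 1, 8 fell, and without Chow library 1 or 2 or HFD library 3 or 4, 3 fell. Of 21 genes of the lipid droplet and lipolysis 5 rose and 3 fell, close to the shares over all genes. Plin2, which coats droplets in many cell types, stood at 144, 126, 156 and 146 CPM on chow and 284, 309, 301 and 383 CPM on HFD (1.08 ± 0.12, adjusted p = 0.000531), and Hilpda, an inhibitor of lipolysis, at 2.79, 2.65, 5.35 and 9.57 CPM on chow and 11.8, 22.1, 21.6 and 17.3 CPM on HFD (1.79 ± 0.40, adjusted p = 0.00935). Plin3 rose by 0.71 ± 0.11. Cidea fell by 1.80 ± 0.34 and Pde3b, which ends the lipolytic signal, fell by 0.92 ± 0.21. Without HFD library 1, 6 fell. Pnpla2 (-0.22 ± 0.16), Plin4 (0.34 ± 0.21) and Cidec did not pass.

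Of 18 genes of fatty acid oxidation 3 rose and 4 fell, near the 16.4% and 17.2% over all genes, so the counts do not set the list apart. Cpt1a, the gate of fatty acids into mitochondria, rose by 0.60 ± 0.12, adjusted p = 0.00578, and Ech1 by 0.57 ± 0.15. Ppargc1a, a coactivator of mitochondrial genes, fell by 1.35 ± 0.28, adjusted p = 0.00582. Without Chow library 1 or HFD library 3, 1 gene of the list fell, and without Chow library 2, HFD library 2 or HFD library 4, 2 fell. None of 28 nuclear genes of oxidative phosphorylation passed in edgeR (5 at an unadjusted p under 0.05, and 0 higher and 1 lower in DESeq2), with Atp5b at -0.03 ± 0.12 and Sdha at -0.34 ± 0.13. Without Chow library 3, 4 of them fell, and without HFD library 1, 3 did. Of 18 genes of branched-chain amino acid breakdown 4 fell, near the 17.2% over all genes, and none rose. Bcat2 led the falls (-0.81 ± 0.16, adjusted p = 0.00497). Without HFD library 1, 8 fell, without Chow library 3, 5, and without any other single library, 3. Genes of the insulin response moved both ways: of 14 tested, 3 rose and 4 fell, with a median of -0.12. The shares over all genes were 16.4% and 17.2%. The insulin signalling genes Irs1 (-1.51 ± 0.25, adjusted p = 0.00282), Pik3r1 (-0.62 ± 0.14) and Insr (-0.52 ± 0.12) fell. Grb14 (1.74 ± 0.18, adjusted p = 0.000464), which restrains the receptor, and Pdk4 (1.25 ± 0.21), which blocks glucose oxidation, rose. Irs1 stood at 250.5, 212, 167 and 127 CPM on chow and 98.7, 59.7, 70.7 and 49.9 CPM on HFD, and Grb14 at 6.402, 8.38, 9.92 and 8.17 CPM on chow and 34.9, 21.6, 27.8 and 31.9 CPM on HFD. Neither gene overlapped between the diets. Akt2 (0.06 ± 0.15) and Foxo1 (-0.15 ± 0.17) did not pass.

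Macrophage genes were higher on HFD. Of 15 tested, 13 rose and none fell, with a median of 0.86. Cd68, a lysosomal glycoprotein of macrophages, stood at 33.99, 46.9, 72.2 and 66.3 CPM in the Chow libraries and 135, 168, 191 and 195 CPM in the HFD libraries (1.57 ± 0.23, adjusted p = 0.00148). Tyrobp, a signalling adaptor of myeloid cells, stood at 20.1, 29.1, 40.6 and 31.6 CPM on chow and 60.4, 66.8, 72.8 and 82.9 CPM on HFD (1.14 ± 0.19, adjusted p = 0.0025). The HFD values of both genes exceeded all Chow values, and Chow library 1 was the lowest of the 8. Fcer1g (1.06 ± 0.23) and the complement gene C1qb (0.86 ± 0.19) rose too. Csf1r missed the threshold (adjusted p = 0.051), and Mertk did not pass (-0.00 ± 0.21). Without Chow library 2, 8 of the 15 rose. The mean of the list lay between 5.69 and 6.602 on the log2 scale in the Chow libraries and between 6.92 and 7.34 in the HFD libraries (exact permutation p = 0.0286, adjusted 0.0776).

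Of 16 genes of lipid-laden macrophages 10 rose and none fell, with a median of 0.92. Mmp12 stood at 1.91, 1.61, 5.17 and 3.4999 CPM on chow and 26.8, 42.2, 24.4 and 47.96 CPM on HFD (3.44 ± 0.38, adjusted p = 0.000662), Lgals3, which encodes galectin 3, at 43.3, 48.2, 61.6 and 62.998 CPM on chow and 110.5, 159, 109.6 and 160.003 CPM on HFD (1.24 ± 0.17, adjusted p = 0.0011), and Fabp5 rose by 0.88 ± 0.13. No HFD library of these 3 genes reached down to the Chow range. Apoe (0.14 ± 0.18) and Cd36 (0.40 ± 0.18), which fat cells also express, did not pass. Receptors of tissue-resident macrophages rose in 5 of 13 cases, among them Cbr2 (1.14 ± 0.24, adjusted p = 0.00806) and Folr2 (0.80 ± 0.21, adjusted p = 0.0168). Without HFD library 2, 9 rose, and without Chow library 1, Chow library 2, HFD library 3 or HFD library 4, 2 rose.

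Signals of inflammation followed. Of 29 cytokine and chemokine genes 12 rose and 2 fell, with a median of 1.09, against 16.4% and 17.2% over all genes. A gene nearly absent on chow can pass the low-count filter through the HFD libraries alone. The number tested therefore depends partly on a rise, and 23 genes of this list were tested in contralateral and 22 in no-tumor fat. Il1b stood at 0.681, 1.19, 3.97 and 4.1998 CPM on chow and 11.6, 37.9, 28.4 and 22.2 CPM on HFD (3.27 ± 0.57, adjusted p = 0.00454), and its antagonist Il1rn at 1.43, 0.838, 3.55 and 4.43 CPM on chow and 12.2, 27.6, 18.9 and 20.05 CPM on HFD (2.90 ± 0.46, adjusted p = 0.00259). Tgfb1 stood at 14.7, 19.9, 24.7 and 23.9 CPM on chow and 31.1, 52.8, 42.9 and 43.5 CPM on HFD (0.95 ± 0.19, adjusted p = 0.00511). For all 3 the groups did not overlap, and Chow libraries 3 and 4 were the highest of the Chow group for Il1b and Il1rn. Ccl3 rose by 3.80 ± 0.69 and Cxcl3 by 4.17 ± 0.86, from under 2 CPM in each Chow library, while Cxcl12, made by stromal cells, fell by 0.63 ± 0.13. Neutrophil genes rose in 6 of 9 cases and 1 fell. The same limit holds for them: 6 were tested in contralateral fat and 5 in no-tumor fat. S100a9, a subunit of calprotectin, stood at 0.0681, 0.978, 2.104 and 2.68 CPM on chow and 11.1, 18.3, 35.3 and 30.6 CPM on HFD (4.01 ± 0.67, adjusted p = 0.00378), and the receptor gene Cxcr2 rose by 2.94 ± 0.62 and Retnlg by 2.29 ± 0.50. Mmp9 fell by 0.74 ± 0.19, adjusted p = 0.0132. Ly6g, Camp, Ngp and Mpo, 4 defining neutrophil genes, were below the low-count filter.

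Few lymphocyte genes passed the test. Of 20 genes of T and NK cells Il7r alone rose (0.97 ± 0.26, adjusted p = 0.0178; adjusted p = 0.054 without Chow library 1 and 0.0503 without HFD library 4), and 2 rose without Chow library 2, Chow library 3 or HFD library 1 and 3 without HFD library 3. Of 13 genes of B and plasma cells Xbp1 alone fell (-0.27 ± 0.09, adjusted p = 0.0488), a gene that secretory and fat cells use too, with adjusted p = 0.0815 without Chow library 1, 0.111 without Chow library 2, 0.0769 without Chow library 3, 0.0587 without Chow library 4, 0.0672 without HFD library 1, 0.0522 without HFD library 2, 0.0694 without HFD library 3 and 0.137 without HFD library 4. None of 10 genes of MHC class II passed in edgeR (1 at an unadjusted p under 0.05, and 0 higher and 0 lower in DESeq2; H2-Aa -0.10 ± 0.20, Cd74 0.03 ± 0.21). Class I did: 6 of 13 rose, with B2m at 1721, 1951, 1924 and 1996 CPM on chow and 3488, 2964, 2920.1 and 3714 CPM on HFD (0.71 ± 0.14, adjusted p = 0.00463) and H2-D1 at 0.54 ± 0.13. The HFD values of B2m lay above all Chow values. Of 28 interferon-response genes 12 rose and 1 fell, among them Ifi27l2a (1.17 ± 0.16, adjusted p = 0.000964), Rsad2 (1.11 ± 0.22, adjusted p = 0.0049), Oas1a (0.92 ± 0.20) and Bst2 (0.93 ± 0.20). Rsad2, which encodes the antiviral enzyme viperin, stood at 21.2, 23.95, 24.8 and 24.97 CPM on chow and 30.5, 73.5, 55.6 and 56.8 CPM on HFD, with HFD library 1 the lowest of the HFD group. Without Chow library 1, 6 rose, and without HFD library 4, 7 did.

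Several secreted matrix proteins were higher on HFD. Of 28 genes of matrix and crosslinking 11 rose and 2 fell. Sparc, a collagen-binding protein of growing fat, stood at 1109, 1245, 1382 and 1207 CPM on chow and 3444, 2615, 2801 and 3766 CPM on HFD (1.27 ± 0.16, adjusted p = 0.000693), Bgn, which encodes biglycan, at 125, 145, 235 and 213 CPM on chow and 477, 372, 536 and 522 CPM on HFD (1.33 ± 0.21, adjusted p = 0.00202), and Thbs1, thrombospondin 1, at 226, 255, 275 and 198 CPM on chow and 607, 703, 557 and 526 CPM on HFD (1.25 ± 0.14, adjusted p = 0.000531). Each of these 3 was higher in every HFD library than in any Chow library. Spon1 fell by 1.88 ± 0.28, adjusted p = 0.00194, and without HFD library 1, 4 members fell. Collagen genes rose in 9 of 18 cases, with a median of 0.40. Col18a1 rose by 0.89 ± 0.14, adjusted p = 0.00162 and Col12a1 by 1.71 ± 0.40, adjusted p = 0.014. Col12a1 stood at 37.9, 29.3, 81.3 and 108 CPM on chow and 153, 235, 255 and 242 CPM on HFD, and Chow libraries 3 and 4 lay above Chow libraries 1 and 2. The abundant Col3a1 (0.34 ± 0.16) and Col1a2 (0.33 ± 0.14) did not pass. Without Chow library 1 or 2, 3 collagen genes rose, without Chow library 4, 5, and without HFD library 3, 4.

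Fibroblast and progenitor genes were near level (1 of 17 rose, 2 fell), with Pdgfra at -0.28 ± 0.10. None fell without Chow library 2 or HFD library 4, 1 fell without Chow library 1, Chow library 4, HFD library 2 or HFD library 3, and none rose without Chow library 1. Genes of blood endothelium were near level too (1 of 16 rose, 1 fell). There Kdr, the receptor for VEGF, fell (-0.64 ± 0.16, adjusted p = 0.0136), Cldn5 rose (0.79 ± 0.23, adjusted p = 0.0267, with adjusted p = 0.0553 without Chow library 3, 0.0669 without HFD library 3 and 0.0542 without HFD library 4) and Pecam1 did not pass (0.22 ± 0.15). Without HFD library 2, 3 endothelial genes rose. Genes of smooth muscle and pericytes were lower, 5 of 12, with a median of -0.60. Myh11, smooth muscle myosin, stood at 246, 175, 172 and 153 CPM on chow and 86.96, 46.99, 74.6 and 36.5 CPM on HFD (-1.68 ± 0.28, adjusted p = 0.00287), and Notch3 (-0.84 ± 0.19), Cspg4 (-0.88 ± 0.18) and Abcc9 (-0.60 ± 0.14) fell by less. The Chow values of Myh11 exceeded all HFD values. Acta2 did not pass (0.03 ± 0.17).

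Secreted regulators of growth moved singly, and the counts of their lists lay near the shares over all genes tested. Of 12 genes of insulin-like growth factors, their receptors and binding proteins 2 rose and 2, not named here, fell. None fell without Chow library 1 or 2 or HFD library 3 or 4. The 2 that rose were the binding protein genes Igfbp2 (1.71 ± 0.20, adjusted p = 0.000584) and Igfbp3 (1.16 ± 0.18, adjusted p = 0.00155), and Igf1 did not pass (0.01 ± 0.16). In the TGF-beta family Bmp3 and the BMP antagonist Chrdl1 (1.14 ± 0.21, adjusted p = 0.00367) rose, while Tgfb2 (-1.26 ± 0.25, adjusted p = 0.00502), Bmp7 (-1.30 ± 0.29, adjusted p = 0.00865) and Fst, which encodes follistatin (-0.86 ± 0.15, adjusted p = 0.00256), fell. In all, 4 of 20 rose and 5 fell, and without Chow library 1 or 2 or HFD library 3 or 4, 3 fell. In the Wnt pathway 3 of 18 rose and 3 fell, the same shares as over all genes (16.4% and 17.2%) to within 1 gene. The secreted inhibitors Sfrp5 and Sfrp1 (0.86 ± 0.19, adjusted p = 0.00757) rose, and Wnt4, a ligand of the mammary epithelium, fell (-1.34 ± 0.30, adjusted p = 0.00846). Without Chow library 1, 1 Wnt gene fell, and without HFD library 1, 5 fell.

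Genes of the mammary epithelium were lower on HFD in the same pieces of fat. Of 18 keratin, junction and lineage genes 14 fell and none rose, with a median of -1.37. Cdh1, which encodes E-cadherin, stood at 66.5, 64.5, 57.8 and 68.01 CPM in the Chow libraries and 36.9, 17.2, 31.3 and 12.4 CPM in the HFD libraries (-1.46 ± 0.31, adjusted p = 0.00816). Trp63, of basal cells, stood at 24.8, 19.6, 20.9 and 22.3 CPM on chow and 9.85, 6.28, 7.73 and 3.31 CPM on HFD (-1.76 ± 0.27, adjusted p = 0.00178), and Elf5, of luminal progenitors, at 35.4, 15.6, 18.6 and 20.2 CPM on chow and 8.79, 5.46, 6.57 and 3.75 CPM on HFD (-1.94 ± 0.31, adjusted p = 0.00234). The 4 Chow libraries were close to each other for Cdh1 and Trp63, while the HFD libraries were spread, with library 1 highest and library 4 lowest. Krt7 fell by 1.70 ± 0.35, adjusted p = 0.00758. Krt14, the abundant basal keratin, did not pass (-1.12 ± 0.43), nor did Cldn3 (-0.99 ± 0.45) and Cldn4 (-0.87 ± 0.44). Without HFD library 2, 9 members fell. The mean of the list lay between 4.67 and 4.93 in the Chow libraries and between 2.49 and 4.13 in the HFD libraries (exact permutation p = 0.0286, adjusted 0.0776). Of 10 milk and alveolar genes 5 fell and 1 rose, led by the water channel gene Aqp5 (-2.83 ± 0.30, adjusted p = 0.000551), Btn1a1 (-2.50 ± 0.43, adjusted p = 0.00378) and Csn3 (-2.05 ± 0.35, adjusted p = 0.00353).

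Receptors for the mammary hormones were lower too. Of 12 tested genes of the hormone list 9 fell and none rose, with a median of -1.70. Prlr (chr15:10177238-10349180), the prolactin receptor, stood at 677, 658, 565 and 670.2 CPM on chow and 227, 82.1, 201 and 90.7 CPM on HFD (-2.17 ± 0.33, adjusted p = 0.0021). Pgr, the progesterone receptor, stood at 67.7, 51.95, 42.7 and 43.4 CPM on chow and 10.2, 7.51, 10.1 and 4.62 CPM on HFD (-2.73 ± 0.25, adjusted p = 0.000317). Both were lower in every HFD library than in any Chow library. Greb1, a target of the estrogen receptor, fell by 1.93 ± 0.36, adjusted p = 0.00444 and Prom1 fell by 2.06 ± 0.28, adjusted p = 0.00114, whereas Esr1, the receptor itself, did not pass (-0.51 ± 0.27). The epithelial list fell in the same libraries, and its part in the fall of the receptors was not tested.

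Cell-cycle genes were higher on HFD: 19 of 25 rose and none fell, with a median of 1.80. Mcm5, a subunit of the replication helicase, stood at 4.97, 4.68, 7.88 and 11.3 CPM in the Chow libraries and 17.7, 46.8, 24.96 and 32.5 CPM in the HFD libraries (2.02 ± 0.35, adjusted p = 0.00384). Aurkb, a mitotic kinase, stood at 1.498, 2.304, 2.71 and 4.43 CPM on chow and 6.16, 21.5, 10.96 and 13.9 CPM on HFD (2.21 ± 0.41, adjusted p = 0.00438), and E2f1, a regulator of entry into S phase, at 2.93, 4.54, 4.99 and 3.73 CPM on chow and 11.2, 12.8, 11.8 and 11.4 CPM on HFD (1.46 ± 0.18, adjusted p = 0.000701). For Mcm5 and Aurkb HFD library 2 was the highest and HFD library 1 the lowest of the HFD group, and Chow library 4 the highest of the Chow group. Pcna rose by 0.97 ± 0.12, adjusted p = 0.000693. Top2a (2.01 ± 0.74), Ccnd1 (0.56 ± 0.24) and Cenpf (1.80 ± 0.93) did not pass. The count fell to 10 without Chow library 1, to 11 without Chow library 2, Chow library 3, HFD library 2 or HFD library 4, and to 12 without HFD library 3. The mean of the list overlapped between the diets, 2.15 to 3.65 on chow and 3.60 to 5.14 on HFD (exact permutation p = 0.0571, adjusted 0.121).

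Because so many members of this list rose together, the promoters of 3 of them are shown, Cdk1 (2.57 ± 0.60, adjusted p = 0.0132), Ccnb2 (2.11 ± 0.51, adjusted p = 0.0144) and Mcm3 (1.61 ± 0.31, adjusted p = 0.00528). The lines hold the 150 bases before the RefSeq start on GRCm38.p6, all on the minus strand, at chr10:69352913-69353062, chr9:70421555-70421704 and chr1:20820313-20820462. Capitals mark CCAAT or its reverse ATTGG, which the factor NF-Y is known to bind, and in Cdk1 also TTTGAA, the core of the cell-cycle homology region.
Cdk1: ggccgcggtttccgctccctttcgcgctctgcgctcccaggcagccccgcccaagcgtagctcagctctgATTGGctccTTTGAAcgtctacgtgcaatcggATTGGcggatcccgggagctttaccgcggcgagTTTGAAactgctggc
Ccnb2: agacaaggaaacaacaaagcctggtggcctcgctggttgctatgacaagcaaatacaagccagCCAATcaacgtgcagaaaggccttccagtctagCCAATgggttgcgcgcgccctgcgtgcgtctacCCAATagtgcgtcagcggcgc
Mcm3: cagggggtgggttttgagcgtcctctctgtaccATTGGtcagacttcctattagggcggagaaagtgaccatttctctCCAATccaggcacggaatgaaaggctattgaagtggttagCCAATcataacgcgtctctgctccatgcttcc
CCAAT was found in 16 of 21 such windows of the 21 cell-cycle genes matched, against 24.5% of all 32851 promoters, and TTTGAA in 4 of 21 against 9.07%. Cdk1 held CCAAT at 2 places, Ccnb2 and Mcm3 each at 3. The window says nothing of whether a factor was bound.

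Of 24 cytosolic ribosomal protein genes 13 rose and 1 fell, with a median of 0.47, among them Rps3 (0.58 ± 0.14, adjusted p = 0.0109) and Rpl32 (0.64 ± 0.15). Rpl5 fell by 0.72 ± 0.17. Without Chow library 1, 6 rose, and without Chow library 3, 8 did. These genes have many near-identical copies, so their separate counts are uncertain. Of 20 lysosome genes 16 rose and none fell, with a median of 0.73. In the same libraries 13 of 15 macrophage genes rose, and their part in the lysosome counts was not tested. Ctsb, a cathepsin protease, stood at 868, 1099, 1163 and 986 CPM on chow and 1902, 1786, 2052 and 2314 CPM on HFD (0.89 ± 0.14, adjusted p = 0.00201), and Ctsl, another, at 169.9, 210.5, 229 and 269 CPM on chow and 455, 505, 496 and 623 CPM on HFD (1.16 ± 0.16, adjusted p = 0.000956). The diets did not overlap for either gene. Lamp2 (0.06 ± 0.12), Npc1 (0.16 ± 0.12) and Mcoln1 (-0.09 ± 0.12) did not pass.

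Of 20 genes of ER stress and the integrated stress response 9 rose and 1, Xbp1, fell. Mthfd2, of mitochondrial folate metabolism, stood at 2.72, 2.51, 2.95 and 3.15 CPM on chow and 5.204, 17.1, 8.77 and 11.1 CPM on HFD (1.81 ± 0.32, adjusted p = 0.00289), and Atf3 (1.18 ± 0.26, adjusted p = 0.00785) and the chaperone gene Pdia6 (0.59 ± 0.10, adjusted p = 0.00287) rose, while Atf4 did not pass (0.42 ± 0.15). Of 18 antioxidant genes 7 rose and 3 fell. Slc7a11, the cystine importer, rose by 2.85 ± 0.44, adjusted p = 0.00178 from under 2 CPM in each Chow library, and Srxn1 by 0.99 ± 0.17, adjusted p = 0.00296. Gclc, which makes the glutathione precursor, stood at 89.6, 74.9, 71.2 and 93.8 CPM on chow and 39.8, 41.5, 48.3 and 41.3 CPM on HFD (-1.02 ± 0.12, adjusted p = 0.000531), and Gpx3 fell by 1.36 ± 0.32, adjusted p = 0.0122. Every HFD value of Gclc was below the Chow range. Without HFD library 1, 5 antioxidant genes fell. Of 20 genes of hypoxia and glycolysis 4 rose and 1 fell, the first near the 16.4% over all genes. Adm, which encodes adrenomedullin, stood at 8.51, 13.4, 14.6 and 25.3 CPM on chow and 29.5, 52.98, 80.7 and 52.7 CPM on HFD (1.74 ± 0.37, adjusted p = 0.00894) and Eno1 rose by 0.61 ± 0.15, adjusted p = 0.0122, while Hif1a (0.29 ± 0.16) and Ldha (0.36 ± 0.14) did not pass. Without Chow library 4, 9 of these rose and without HFD library 1, 8 did, against 2 without Chow library 1, Chow library 2, HFD library 2 or HFD library 4. None fell without Chow library 1, Chow library 2, Chow library 3 or HFD library 4.

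Clock genes fell in 7 of 16 cases and rose in none, with a median of -0.54. Bhlhe41, a repressor of the clock, stood at 78.9, 64.2, 60.3 and 80.4 CPM on chow and 41.1, 26.6, 29.8 and 16.4 CPM on HFD (-1.39 ± 0.24, adjusted p = 0.00353), and Npas2 (-1.16 ± 0.23, adjusted p = 0.00465) and Per1 (-0.72 ± 0.12, adjusted p = 0.00237) fell. Chow and HFD values of Bhlhe41 did not overlap. Clock (0.00 ± 0.12) and Nr1d1 (-0.51 ± 0.20) did not pass, and without HFD library 1, 11 fell. The labels do not state the time of day at which tissue was taken. Of 17 immediate early genes 4 rose, not far from the 16.4% over all genes, and none fell. Among them was Fos (0.84 ± 0.17, adjusted p = 0.0051). Without Chow library 1 or HFD library 3, 2 rose. Of 13 genes of the glucocorticoid response 3 fell and none rose, against 17.2% lower and 16.4% higher over all genes, so most did not pass. Among the 3 was Errfi1, a brake on the EGF receptor that glucocorticoids induce (-1.22 ± 0.16, adjusted p = 0.000869).

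Nerve and blood moved in opposite directions. Of 13 genes of Schwann cells and myelin 7 fell and none rose, with a median of -1.22. Cdh19, a cadherin of Schwann cells, stood at 9.94, 10.8, 8.898 and 7.82 CPM on chow and 3.41, 2.29, 4.14 and 2.06 CPM on HFD (-1.73 ± 0.24, adjusted p = 0.00103), every HFD library below every Chow library, and Prx (-1.47 ± 0.23, adjusted p = 0.00187) and Ncmap (-1.80 ± 0.36, adjusted p = 0.00502) fell with it. Of 7 red blood cell genes 6 rose. Hbb-bs, an adult beta globin gene, stood at 85.95, 113, 85.98 and 59.6 CPM on chow and 256, 237, 374 and 255 CPM on HFD (1.63 ± 0.20, adjusted p = 0.000749), and Hba-a1 rose by 1.54 ± 0.17, adjusted p = 0.000518. Globin values were highest in HFD library 3, and every HFD library exceeded every Chow library. The globin genes are near-identical copies with uncertain separate counts. None of 12 skeletal muscle genes passed in edgeR (median -2.86, or -0.77 without Chow library 2 and -4.45 without HFD library 2; 0 at an unadjusted p under 0.05, and 0 higher and 2 lower in DESeq2), and their sum was carried by Chow library 2.

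**Figure D3:**
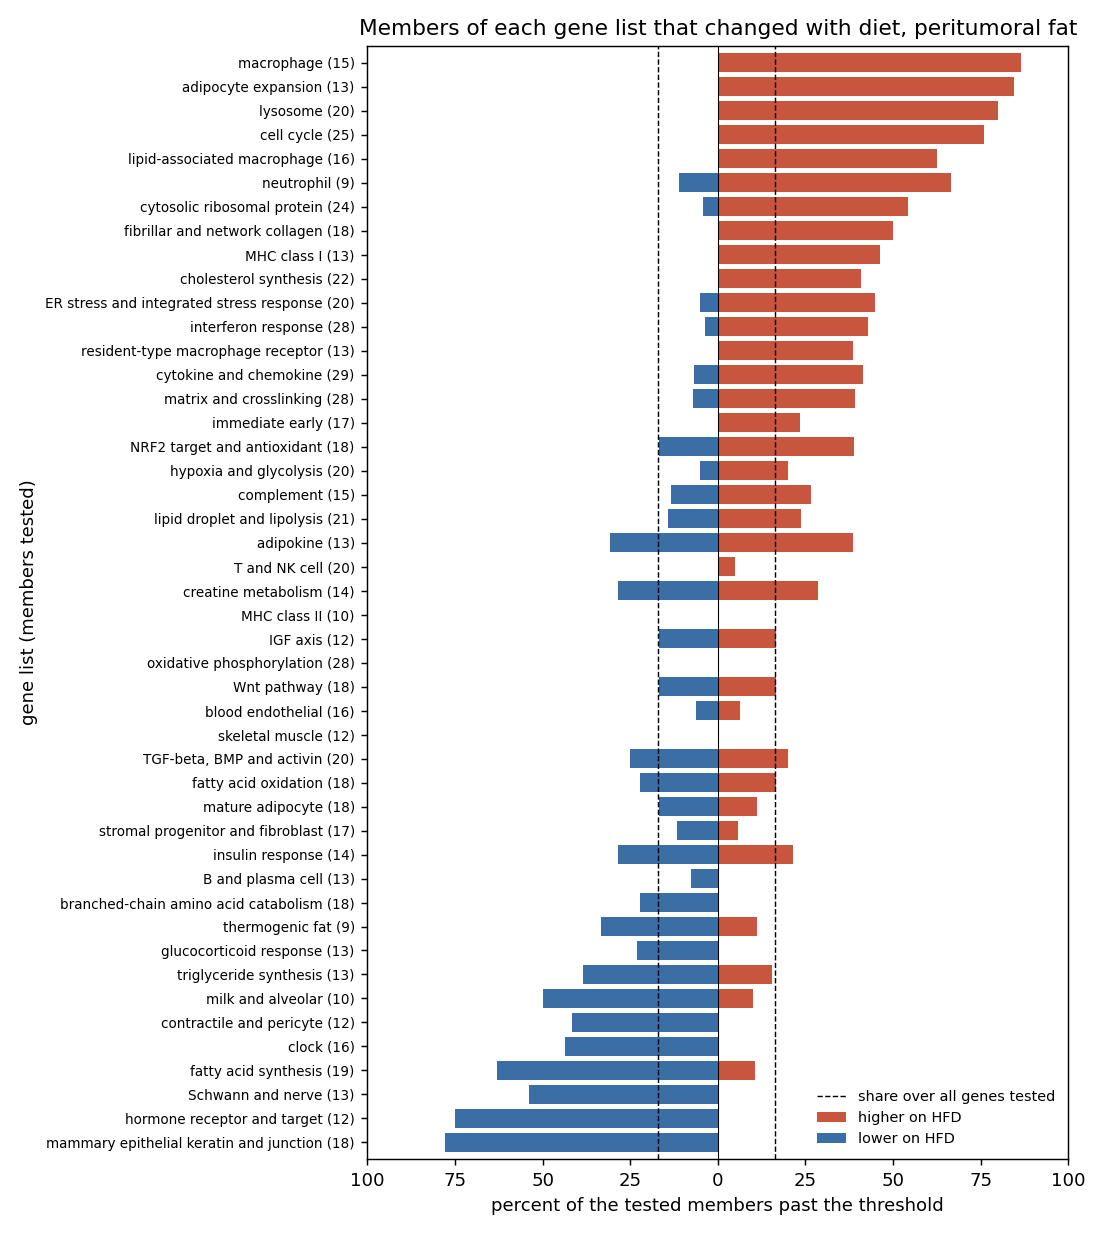
Share of the tested members of 46 gene lists, those with at least 9 tested members, that rose (red, to the right) or fell (blue, to the left) on HFD in peritumoral fat, in percent, with the number tested in brackets. Dashed lines mark the shares over all genes tested, 16.4% higher and 17.2% lower: macrophage, expansion, lysosome and cell-cycle genes pass the first line by the most, and epithelial and hormone receptor genes the second.

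The difference on the tumor side was set against the same comparison on the opposite side and in mice without a tumor, which share no library with it or with each other. The labels do not say whether the contralateral libraries came from the same mice. In contralateral fat 3900 of 15913 genes were higher (24.5%) and 3947 lower (24.8%), 49.3% in all, and in no-tumor fat 2160 of 15827 were higher (13.6%) and 1783 lower (11.3%). Of the genes tested on both sides, 63.3% of those higher here were also higher in contralateral fat (41.3% of the contralateral list) and 77.9% of those lower here were lower there (55.8%). With no-tumor fat the shares were 31.9% of the genes higher here (38.0% of that list) and 23.1% of those lower (35.1%).

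The difference between the sides passed for none of 16859 genes in edgeR's interaction test, 0% called, with 3350 genes at an unadjusted p under 0.05 and a lowest adjusted p of 0.0521. DESeq2 called 594. One library decided much of this: without HFD peritumoral library 1, 1911 genes passed, without Chow peritumoral library 3, 68, and without Chow contralateral library 4, 1. The side comparison therefore gave no stable count in these libraries, and a p above the threshold does not show that the sides were alike.

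Against no-tumor fat 1632 of 16744 genes had a larger HFD minus Chow difference (9.75%) and 1824 a smaller one (10.9%), both relative to the signed difference in no-tumor fat. Without Chow peritumoral library 1 the counts were 1061 and 1197, without Chow peritumoral library 4 the first was 2678, and without Chow no-tumor library 1 or 4 the second was 1210 or 1208. Genes of fat cell expansion and fatty acid synthesis passed this test about as often as all genes did. Of 13 expansion genes 1 differed upward and 1 downward from no-tumor fat, and Lep changed by 2.50 ± 0.20 here and 2.77 ± 0.18 there. Sfrp5 changed by 4.16 ± 0.24 and 4.31 ± 0.38. Of 19 genes of fatty acid synthesis 2 differed, both downward, and Fasn changed by -3.25 ± 0.26 and -2.54 ± 0.73. With each of the 16 libraries left out in turn, 1 or 2 expansion genes differed upward, 0 to 2 downward, and 0 to 4 genes of fatty acid synthesis downward.

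Macrophage and interferon genes departed from no-tumor fat. Of 15 macrophage genes 13 had a larger difference here and none a smaller one, and of 28 interferon-response genes 20 had a larger one. Of 13 receptors of tissue-resident macrophages 9 had a larger one, but of 16 genes of lipid-laden macrophages only 4 did. Of those 16, 9 were higher on HFD in no-tumor fat too, and in contralateral fat 14 were higher and 1 lower. In no-tumor fat 18 of the 28 interferon genes were lower on HFD and 1 higher. Cd68 changed by 1.57 ± 0.23 here against -0.03 ± 0.19 in no-tumor fat (difference 1.61 ± 0.31, adjusted p = 0.00396), and C1qb by 0.86 ± 0.19 against -0.67 ± 0.25 (1.54 ± 0.31, adjusted p = 0.00486). Rsad2 changed by 1.11 ± 0.22 against -0.69 ± 0.27 (1.80 ± 0.37, adjusted p = 0.00486), and Oas1a by 0.92 ± 0.20 against -1.50 ± 0.32 (2.43 ± 0.38, adjusted p = 0.00158). The median of the interferon list was 0.37 here and -1.03 in no-tumor fat. Of 24 ribosomal protein genes 19 had a larger difference, of 20 ER stress genes 10 and of 20 lysosome genes 11, the last count 7 without Chow peritumoral library 1. Contralateral fat shared part of this: there 9 of 15 macrophage, 16 of 20 lysosome and 11 of 20 ER stress genes were higher on HFD, against 1 of 23 ribosomal protein and 3 of 28 interferon genes, and 17 interferon genes were lower. Rps3 changed by 0.58 ± 0.14 in peritumoral fat and -0.35 ± 0.06 in no-tumor fat (difference 0.94 ± 0.15, adjusted p = 0.00162).

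**Figure D4:**
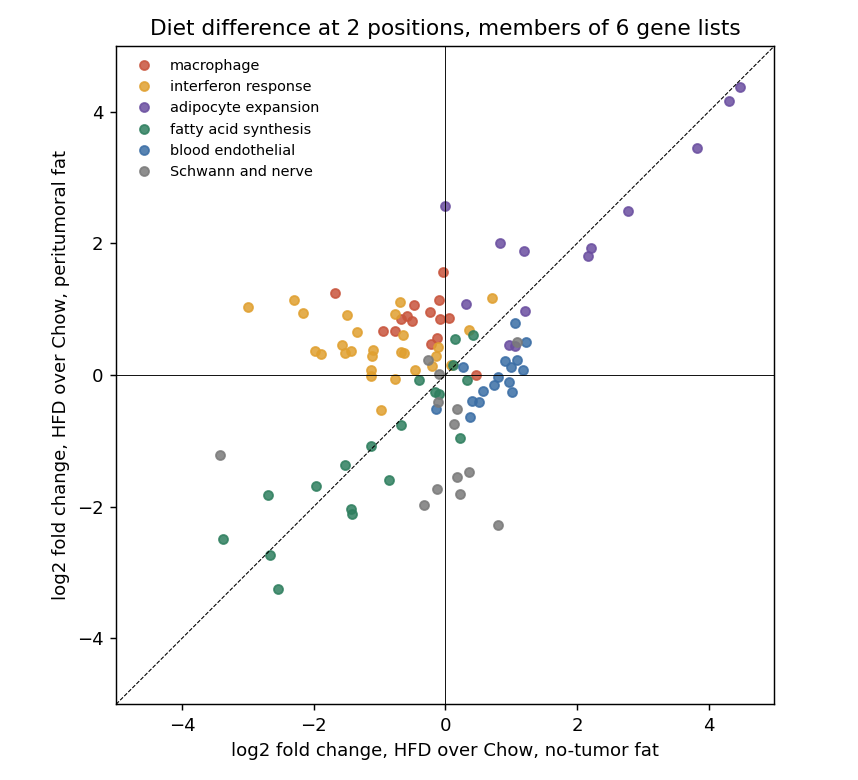
Log2 fold change (HFD over Chow) in no-tumor fat on the horizontal axis and in peritumoral fat on the vertical axis for the members of 6 gene lists, 1 point per gene, with a dashed line where the changes are equal. Expansion and fatty acid synthesis genes run along the line, most macrophage and interferon genes lie above it, and most endothelial and nerve genes below it.

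Vessel, nerve and nuclear RNA genes departed from no-tumor fat in the other direction. Of 16 blood endothelial genes 13 had a smaller difference here: 15 were higher on HFD in no-tumor fat and 1 was higher here. Kdr changed by -0.64 ± 0.16 against 0.38 ± 0.10 (-1.01 ± 0.20, adjusted p = 0.00388). Of 12 contractile genes 7 had a smaller difference, with Myh11 at -1.68 ± 0.28 against 0.20 ± 0.12 (-1.87 ± 0.32, adjusted p = 0.00222). Of 14 nerve genes 7 had a smaller one and 1 a larger one, with Prx at -1.47 ± 0.23 against 0.36 ± 0.18 (-1.84 ± 0.31, adjusted p = 0.00185). In contralateral fat 10 of 14 nerve genes (median -1.06) and 6 of 12 contractile genes were also lower on HFD, and 1 of 16 endothelial genes was. The share of counts in antisense and long intergenic genes was lower on HFD in contralateral fat too. It was 0.961% to 1.003% in the HFD libraries and 1.878% to 13.24% in the Chow libraries, with 11.37% of Chow library 2 in the gene Gm42418. Neat1 changed by -1.15 ± 0.18 in peritumoral fat and 0.38 ± 0.08 in no-tumor fat (-1.51 ± 0.20, adjusted p = 0.000846). Malat1 changed by -1.19 ± 0.14 and -0.29 ± 0.08 in the same order (-0.89 ± 0.14, adjusted p = 0.00162). Several genes with the lowest adjusted p also had a smaller difference here. Kcna1 (-2.47 ± 0.31, adjusted p = 0.000846), Mdm4, an inhibitor of p53 (-0.80 ± 0.09, adjusted p = 0.000846), Snapc3 (-0.95 ± 0.12, adjusted p = 0.000846), Apex2 (-1.20 ± 0.15, adjusted p = 0.000846), Kalrn (-1.65 ± 0.19, adjusted p = 0.000846), Spaca6 (-1.001 ± 0.13, adjusted p = 0.000846) and Zfp950 (-0.98 ± 0.12, adjusted p = 0.000846) all fell here. In no-tumor fat Kalrn rose (0.80 ± 0.08), and the other 6 did not pass.

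Epithelial and cell-cycle genes lay between these cases. Of 18 epithelial genes 6 had a smaller difference than in no-tumor fat, or 12 without HFD peritumoral library 1, and in contralateral fat 16 of 18 were lower on HFD. Trp63 changed by -1.76 ± 0.27 here, -0.20 ± 0.12 in no-tumor fat and -0.98 ± 0.25 in contralateral fat (difference from no-tumor fat -1.55 ± 0.31, adjusted p = 0.00395). Of 25 cell-cycle genes 6 had a larger difference, or 16 without Chow peritumoral library 4 and 12 without HFD peritumoral library 1. Mcm5 changed by 2.02 ± 0.35 here and -0.23 ± 0.22 in no-tumor fat (2.27 ± 0.46, adjusted p = 0.00486). For creatine synthesis Gatm changed by 1.14 ± 0.31, -0.41 ± 0.14 and 0.01 ± 0.16 in peritumoral, contralateral and no-tumor fat, and Gamt by 0.78 ± 0.19, 1.07 ± 0.14 and 0.86 ± 0.20.

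**Figure D5:**
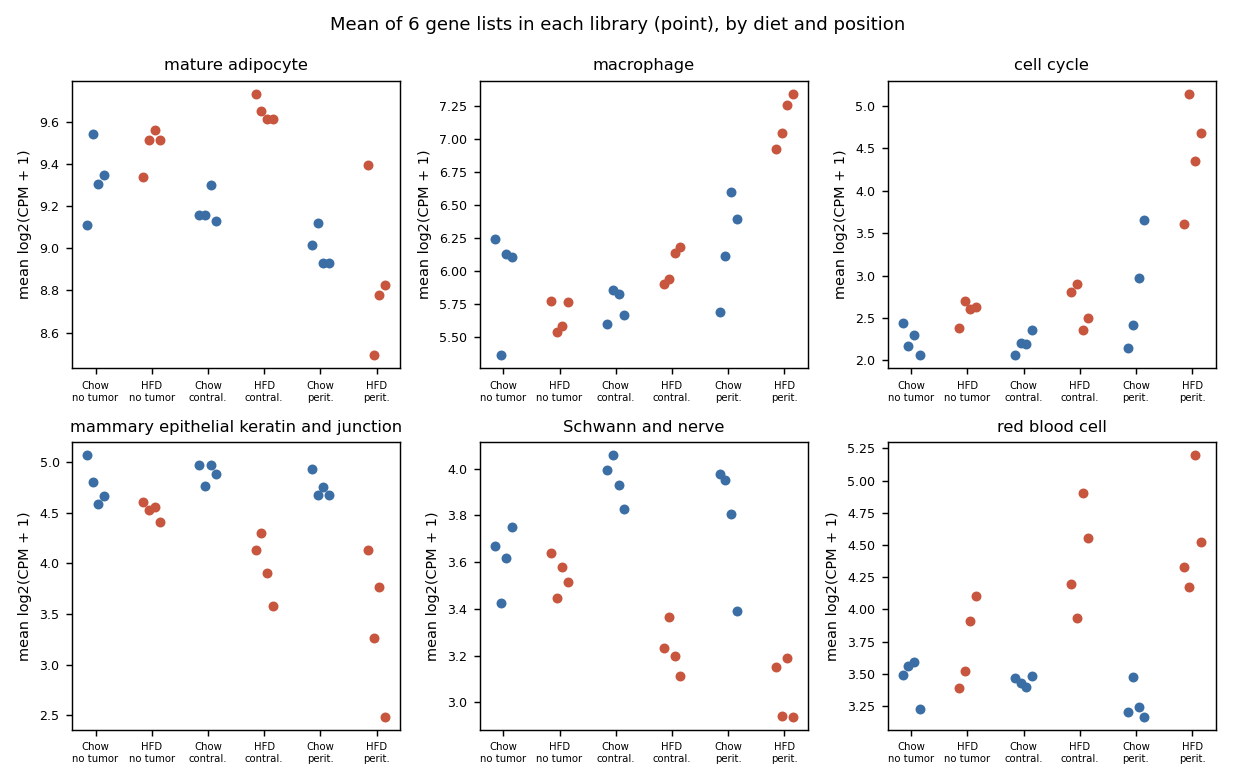
Mean log2(CPM + 1) over the members of 6 gene lists in each of the 24 libraries, 1 point per library, by diet (blue Chow, red HFD) and position. In peritumoral fat the HFD libraries lie above the Chow libraries for macrophage and red blood cell genes and below them for epithelial and nerve genes, and the groups overlap for fat cell and cell-cycle genes.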

How the data were processed

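Total RNA of flash-frozen fat was depleted of ribosomal RNA and sequenced, per the labels' protocols. The deposited table holds whole-number counts per gene, raw and not normalized, for 24 libraries. Per the submitters' processing notes the tools were TopHat and DESeq and the build mm10, and their versions, the counting program and its strand setting are not stated. Antisense partners, and near-identical copies such as globin genes, therefore cannot be told apart with certainty.

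Here the deposited counts were compared with edgeR 4.0.16 (limma 3.58.1, R 4.3.3): TMM factors, a low-count filter (filterByExpr, count 10, total 15), and the quasi-likelihood test between the groups compared, with Benjamini-Hochberg adjustment over all genes tested. Every adjusted p of a gene comes from this test. The difference between positions was an interaction term. Measures of 1 library each were compared by a two-sided exact permutation test. List means are means of log2(CPM + 1). The alternatives were DESeq2 1.42.0, limma voom with quality weights, RLE factors, other filters, thinned counts, 1 fit of all 24 libraries, a B cell covariate, a block on the replicate number, and leaving out each library. A fit of protein-coding genes alone and the non-coding share were added after seeing the data. The fit was tested on simulated data. Promoters came from RefSeq.

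The comparison and the 51 gene lists, with 815 symbols, were chosen with earlier results of these data known. Genes were named by a rule: those with the lowest adjusted p or largest change, at 1 or more on the log2 scale, 5 CPM and no overlap, all creatine genes, up to 4 called members per list and direction and up to 3 abundant members not called, and up to 8 per interaction. Acss2, Ccnb2, Cdk1, Elovl6, Mcm3, Me1, Mlxipl, Slc25a1 and Srebf1 fall outside it and were chosen after their values were seen. Some genes that the rule names are not reported here. No sample was left out.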

Additional observations from a re-analysis of the deposited data

Results flagged for a closer look

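In 9 of 164 groups of 4 examined, 1 library stood apart from the other 3, its gap to the nearest of them being above Dixon's 95% critical share of the group's range. Chance gives about 1 in 20. Chow library 2 was highest for Ckm at 104 CPM, for Scd1 at 16986 CPM and for Tkt at 881 CPM. HFD library 2 was highest for Ckm at 10.8 CPM and for the skeletal muscle mean at 3.18. HFD library 3 was lowest for Gamt at 6.88 CPM and highest for Hbb-bs at 374 CPM. HFD library 4 was highest for Itgad at 29.1 CPM, and Chow library 3 for Sfrp5 at 17.3 CPM.

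By the interaction test the HFD minus Chow difference in peritumoral fat was larger than in no-tumor fat for 1632 genes and smaller for 1824. Of the genes named, it was larger for C1qb by 1.54 on the log2 scale, Cd68 by 1.61, Mcm5 by 2.27, Oas1a by 2.43, Rps3 by 0.94 and Rsad2 by 1.80. The signed difference was -2.47 for Kcna1, -1.87 for Myh11, -1.84 for Prx, -1.65 for Kalrn and -1.55 for Trp63. It was -1.51 for Neat1, -1.20 for Apex2, -1.01 for Kdr, -1.001 for Spaca6 and -0.98 for Zfp950. It was -0.95 for Snapc3, -0.89 for Malat1 and -0.80 for Mdm4.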

How the results depend on the processing

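Of 182 genes named here as changed, 175 kept the call under every alternative and 7 lost it when 1 library was left out. Of these 7, Xbp1 also lost it in 4 other alternatives, Odc1 in 2 and Il7r in 1. None changed sign. The naming rule favors genes with a low adjusted p, and some genes that it names are not reported here. The share that kept the call is therefore not that of all called genes. Of all genes that the rule names, 236 passed with all 8 libraries. With 1 library left out 195 to 256 passed, the fewest without Chow library 1 and the most without HFD library 1. All 19 named differences from no-tumor fat kept their call. With 1 library left out, 3107 to 6003 genes passed against 5353, 1399 to 3021 of them higher and 1708 to 2982 lower. One fit of all 24 libraries called 8799, of which 5113 were higher. The other alternatives stayed within 1.5 times. The difference between tumor sides (0 genes) came to 594 in DESeq2, 7 without the filter, 2 with thinned counts and 0 to 1911 with 1 library left out. The difference from no-tumor fat (3456) ranged from 2258 to 4783, with 1061 to 2678 upward and 1197 to 2441 downward.

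With a block on the replicate number 2618 genes were higher and 2659 lower in peritumoral fat, and 148 differed between the sides. Deviations of same-numbered Chow and HFD libraries correlated at 0.373, -0.0906, -0.0115 and 0.238. Those of same-numbered peritumoral and contralateral libraries correlated at 0.111, 0.265, 0.0445 and -0.0296 on chow and -0.0959, 0.143, 0.278 and 0.424 on HFD. The numbers were not taken to pair libraries, since not every correlation was above 0.1. Chow library 4 had the lowest total, 9130125 counts, which limits genes under about 1 CPM.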

Other observations

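Some smaller groups of genes have not been described. Of 15 complement genes 4 rose and 2 fell, not far from the 16.4% and 17.2% over all genes tested. The receptor genes C3ar1 (1.16 ± 0.26) and C5ar1 (1.18 ± 0.29), found on myeloid cells, rose, while C3 fell by 1.11 ± 0.17. Without Chow library 1, 2 rose. Of 8 mast cell genes 1 fell, the stem cell factor receptor gene Kit (-1.09 ± 0.24). Of 7 lymphatic genes 1 rose and 1, Reln, fell. Falls in the mast cell and lymphatic lists were no more frequent than the 17.2% over all genes tested.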
